A study of Mus musculus with 6 samples.

Results

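The transcripts of 8 genes that mark eosinophils were measured in mouse bone marrow cells cultured with and without midkine. They encode granule proteins (Prg2, Prg3, Epx, Ear1, Ear2 and Ear6) and surface receptors (Il5ra and Siglecf). They were taken by symbol from a table of 15443 genes, in which all 8 had a value, and all 8 passed the filter on low values used for the tests (a mean of at least 5 normalized counts over the 6 libraries). The 8 genes were chosen by their normalized counts in these same libraries, with the difference between midkine and control in view, so that difference is given for them as a description, with no test.

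Eosinophils are granulocytes that arise in the bone marrow and store cationic proteins in large granules. Major basic protein forms the crystalline core of these granules, and eosinophil peroxidase and ribonucleases of the eosinophil-associated family lie in the matrix around it. IL-5 drives the growth and survival of eosinophils through a receptor made of the IL-5 receptor alpha chain and a beta chain shared with the receptors for IL-3 and GM-CSF. In developing eosinophils the granule protein genes are transcribed early and strongly, with GATA and C/EBP proteins among the factors known to act on them.

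The cells came from the bone marrow of wild-type C57BL/6J mice, an inbred strain, and the labels used here give no age. The midkine group held 3 libraries (replicates 3, 4 and 5) from cells given recombinant human midkine, a heparin-binding growth factor, at 10 ng/ml. The control group held 3 libraries (replicates 1, 2 and 4) from cells without it. All cells of both groups were kept for 3 days with FLT3LG, the cytokine that drives dendritic cell growth, at 50 ng/ml, and no IL-5 is named in the medium. The labels name no sorting of the marrow cells, and marrow holds granulocytes and their precursors. Whether replicates were separate animals or separate cultures is not said, so a p-value here covers the spread among these 6 samples alone, part of which may be technical.

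Libraries held 6042165 to 7233960 reads with midkine and 5985684 to 6415043 in control. The library midkine 5 stood apart, correlating with the rest at 0.921 to 0.941 (Pearson, log2 values over genes), while pairs of the remaining 5 libraries gave 0.966 to 0.985. Its share of reads on mitochondrial ribosomal RNA was 0.377%, against 4.12 to 6.16% elsewhere. The fold changes and calls below are therefore also given without midkine 5, which leaves midkine 3 and 4 against the 3 controls. Dendritic cell markers fixed for this check (Flt3, Zbtb46, Siglech and Cd74) were all detected, with summed levels of 1845 to 5470 normalized counts with midkine and 4754 to 5701 in control.

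The 3 ribonuclease genes all lie on chromosome 14 of GRCm38 and are close copies of one another upstream as well as in their transcripts. Stretches upstream of Ear1, Ear2, Ear6 and Prg3 are shown because the values of these genes lay higher with midkine in most libraries, and because the near-identity of the ribonuclease genes bears on how their reads can be told apart. The values of Epx also lay higher in midkine 3 and 4, but its window, which held none of the motifs searched for, is not shown. Sequences are from RefSeq promoter windows on GRCm38.p6, 5′ to 3′ along the gene's strand. Capitals mark the letters TTNCNNAA, a loose form of the sequence bound by C/EBP proteins, and TGATAA on either strand, a form of the sequence bound by GATA proteins. The Ear stretches run from base -200 to -71, counted back from the RefSeq start of the gene. That of Prg3 runs from -180 to -51, which takes in its match at -65.
Ear1 (chr14:43819710-43819839, minus strand): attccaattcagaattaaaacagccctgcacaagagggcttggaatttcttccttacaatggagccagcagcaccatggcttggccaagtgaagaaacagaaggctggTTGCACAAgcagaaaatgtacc
Ear2 (chr14:44102454-44102583, plus strand): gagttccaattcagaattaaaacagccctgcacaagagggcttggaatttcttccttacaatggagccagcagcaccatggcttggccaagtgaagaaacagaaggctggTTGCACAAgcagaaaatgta
Ear6 (chr14:51853568-51853697, plus strand): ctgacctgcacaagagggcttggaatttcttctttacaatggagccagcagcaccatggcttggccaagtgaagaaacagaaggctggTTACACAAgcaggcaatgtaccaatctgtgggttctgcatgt
Prg3 (chr2:84988035-84988164, plus strand): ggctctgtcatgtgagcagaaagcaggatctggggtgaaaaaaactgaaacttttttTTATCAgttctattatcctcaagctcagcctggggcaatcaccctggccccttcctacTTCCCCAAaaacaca

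Over the 250 bases upstream, Ear1 and Ear2 were identical at 246 of 248 aligned bases, Ear1 and Ear6 at 212 of 229, and Ear2 and Ear6 at 211 of 227. Each of the 3 held TTNCNNAA once, at base -92 in Ear1, -90 in Ear2 and -112 in Ear6 (first base of the match), and Prg3 held it at -65. In the same window it occurred in 36.9% of 27025 promoters searched on both strands. TGATAA occurred in Prg3 at -123 and in 8.16% of all promoters. AGATAA, another GATA form, occurred in Il5ra at -74 and in 10.3% of all promoters. The Epx window held none of the 3 motifs, and the Siglecf window held TTNCNNAA at -216 and -123. Such matches describe letters and not bound sites. The bases were counted back from RefSeq starts, which differ from GENCODE for Ear1 and Ear6. By GENCODE, Ear1 spans 43818765 to 43875517, so its whole window lies inside the gene. Ear6 begins at 51853699 by GENCODE, so the part of its window nearest the RefSeq start lies inside the gene. Prg2 lies on chromosome 2 (84980461 to 84983632, plus strand), with 4582 bases between its end and the start of Prg3.

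The genes of major basic protein had higher values in every midkine library than in every control library. Prg2, which encodes major basic protein, had 1704, 1758 and 1176 normalized counts in midkine 3, 4 and 5, against 787, 784 and 657 in control 1, 2 and 4. Midkine 5 lay below the other midkine libraries and above all 3 controls. The log2 fold change of Prg2 was 1.04 ± 0.191 (SE, n = 3 per group, as for all fold changes below with all 6 libraries). It was 1.22 without midkine 5, where midkine 3 and 4 were set against the 3 controls. Prg3 encodes a homologue of major basic protein and is its neighbour on the chromosome (84988215 to 84993886, plus strand). Prg3 had 52.2, 49.6 and 59.9 normalized counts in midkine 3, 4 and 5, against 22.6, 23.5 and 21.7 in control 1, 2 and 4. Here midkine 5 was the highest library, and the groups did not overlap. Its log2 fold change was 1.21 ± 0.212, and 1.14 without midkine 5. The 2 neighbours thus differed in midkine 5, where Prg2 had 19.6 normalized counts for each of Prg3, while midkine 3 had 32.6, midkine 4 had 35.4 and the controls had 30.3 to 34.9.

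**Figure D1:**
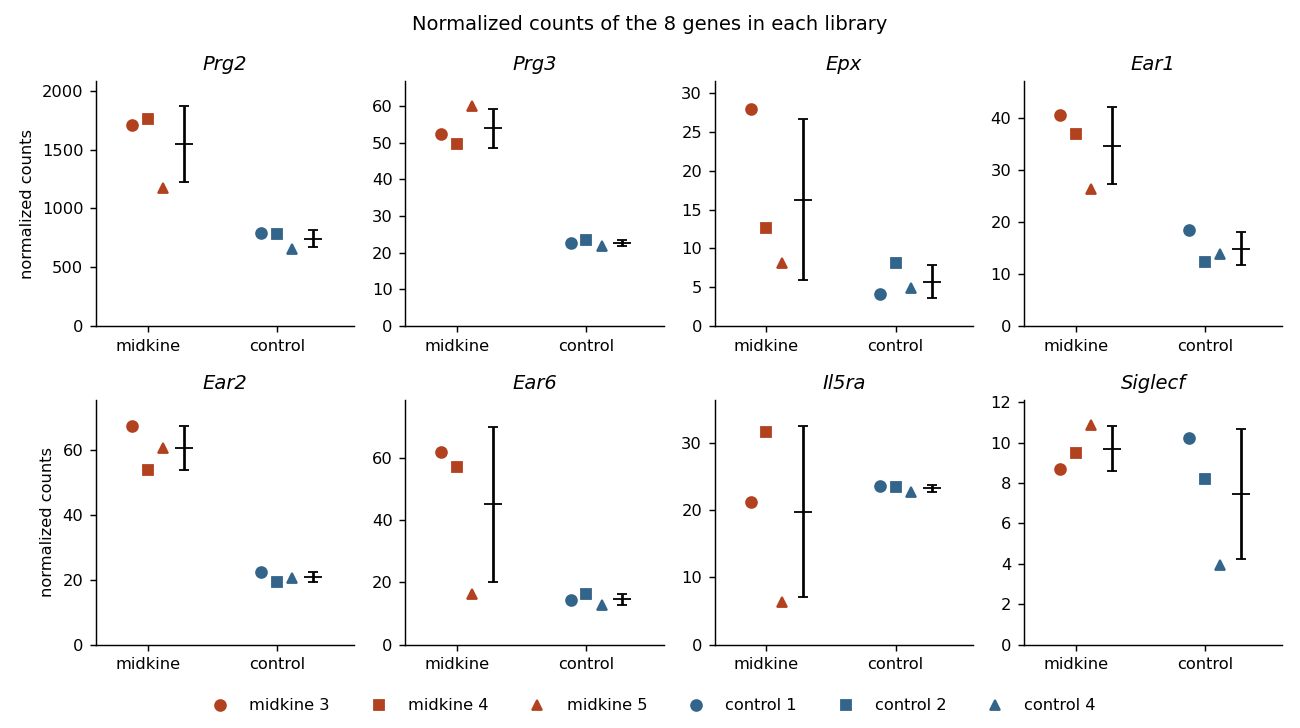
Normalized counts (vertical axes, from 0) of the 8 genes in the midkine libraries (red, left) and the control libraries (blue, right), with 1 symbol per library and the mean and SD of 3 libraries in black. Prg2, Prg3, Ear1 and Ear2 have all midkine values above all control values, and in Epx, Ear6 and Il5ra the lowest midkine value, that of midkine 5, lies within or below the control values.

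Epx, the peroxidase that makes the bromine-based oxidants of eosinophils, was near the limit of detection. It lies on chromosome 11 (87864000 to 87875536, minus strand). Epx had 29, 12 and 9 reads in midkine 3, 4 and 5, against 4, 8 and 5 reads in control 1, 2 and 4. In normalized counts these were 28.0, 12.7 and 8.17 with midkine, against 4.10, 8.18 and 4.93 in control. Midkine 3 was the highest library, and midkine 5 equalled control 2 to within 1 read's worth, so the groups overlapped. Scaled to library size, the Wilson 95% interval of Epx was 3.15 to 6.51 RPM in midkine 3, above the interval of 0.663 to 2.58 RPM in control 2, while that of midkine 5 was 0.655 to 2.36 RPM. These intervals cover counting error only. The log2 fold change of 1.24 ± 0.502 was 1.61 without midkine 5 and 0.78 without midkine 3.

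The eosinophil-associated ribonucleases were higher in midkine 3 and 4 than in every control, and differed from one another in midkine 5. These enzymes of the ribonuclease A superfamily are the mouse counterparts of human eosinophil-derived neurotoxin and eosinophil cationic protein. Ear1 (43818765 to 43875517, minus strand, in an annotation that joins it to a pseudogene copy) had 40.6, 36.9 and 26.3 normalized counts in midkine 3, 4 and 5, against 18.5, 12.3 and 13.8 in control 1, 2 and 4. Ear2 (44102654 to 44103534, plus strand) had 67.7, 53.8 and 60.8 with midkine, against 22.6, 19.4 and 20.7 in control. Neither gene overlapped between the groups, and midkine 5 lay within the range of the other midkine libraries for Ear2 but below them for Ear1. The log2 fold changes were 1.17 ± 0.290 for Ear1 and 1.49 ± 0.217 for Ear2, or 1.35 and 1.49 without midkine 5.

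Ear6 (51853699 to 51854643, plus strand) had 61.9, 57.0 and 16.3 normalized counts in midkine 3, 4 and 5, against 14.4, 16.4 and 12.8 in control 1, 2 and 4. Midkine 5 was inside the control range, so Ear6 overlapped while midkine 3 and 4 had more than 3 times the highest control. Its log2 fold change was 1.37 ± 0.482, and 1.97 without midkine 5. Of the reads of the 3 ribonuclease genes, Ear6 held 36.4 and 38.6% in midkine 3 and 4 but 15.8% in midkine 5, against 25.9 to 34.0% in the controls. Ear2 held 58.8% in midkine 5, 39.8% in midkine 3 and 36.4% in midkine 4, while the controls had 40.4 to 43.8%.

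The split between Ear1 and Ear2 is uncertain. Over the last 300 bases of their transcripts, where a 3′ library reads, Ear1 and Ear2 were identical at 296 bases and shared a run of 93, and Ear1 and Ear6 shared a run of 58. The last 300 bases of Ear10, which had no value among the gene symbols, shared a run of 100 with Ear1. How reads that fit several copies were counted is not given in the sources used here. The sum of Ear1 and Ear2 does not depend on the split between them: it was 108, 90.8 and 87.1 normalized counts in midkine 3, 4 and 5, against 41.0, 31.7 and 34.5 in control 1, 2 and 4. With Ear6 added, the sums were 170, 148 and 103, against 55.4, 48.1 and 47.3, with no overlap of the groups in either case.

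The receptor genes overlapped between the groups, and their difference from the granule genes was not tested. Il5ra, the chain that binds IL-5, lies on chromosome 6 (106710357 to 106749037, minus strand). It had 21.3, 31.7 and 6.35 normalized counts in midkine 3, 4 and 5, against 23.6, 23.5 and 22.7 in control 1, 2 and 4. The controls had 23 reads each, midkine 3 and 4 lay on either side of them with 22 and 30, and midkine 5 was lowest with 7. The whole Wilson interval of midkine 5, around 0.968 RPM, lay below the lowest bound in any control, 2.39 RPM. The log2 fold change of Il5ra was -0.47 ± 0.512 and changed sign to 0.15 without midkine 5.

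Siglecf, a sialic acid-binding inhibitory receptor that marks mouse eosinophils and also alveolar macrophages, lies on chromosome 7 (43351341 to 43359531, plus strand). It had 9, 9 and 12 reads in midkine 3, 4 and 5, against 10, 8 and 4 reads in control 1, 2 and 4. In normalized counts the range was 8.70 to 10.9 with midkine and 3.94 to 10.3 in control, so the groups overlapped. Its log2 fold change was 0.41 ± 0.422, with 0.34 without midkine 5 and 0.07 without control 4, the library with 4 reads. Whether Siglecf differed between the groups was not tested, and its counts of 4 to 12 reads were low.

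Taking the 8 genes as a list, the median log2 fold change was 1.19, against -0.0040 over the 13543 genes tested, and 7 were positive and 1 negative. For 4 of the 8 genes (Prg2, Prg3, Ear1 and Ear2) all midkine values lay above all control values, as they did for 15.5% of all genes tested, and for none of the 8 did they all lie below, as they did for 15.3%. All 6 granule genes had a log2 fold change of at least 1, as had 2.69% of all genes tested. The genes were chosen with these values known, so nothing is read from those counts. Without midkine 5 the median was 1.28. Set against the mean of the controls, the 8 genes had a median log2 difference of 1.31 in midkine 3, 1.17 in midkine 4 and 0.62 in midkine 5. The 6 granule genes alone had 1.53, 1.26 and 0.74 in midkine 3, 4 and 5.

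**Figure D2:**
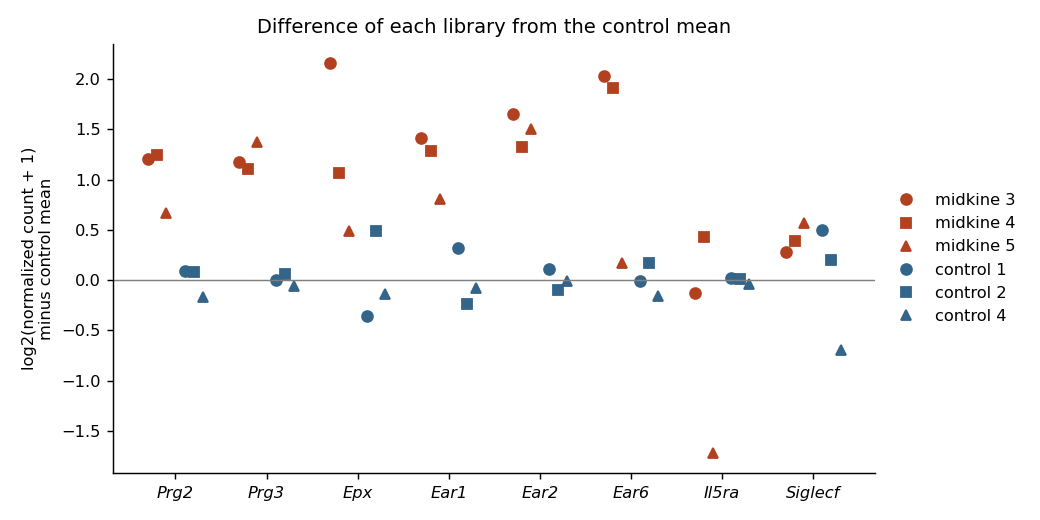
Difference of each library from the control mean, on the log2(normalized count + 1) scale (vertical axis), for the 8 genes; red symbols are midkine libraries and blue symbols control libraries, with 1 symbol per library. The 6 granule genes lie above 0 in all midkine libraries, Ear6 and Epx in midkine 5 lie at the level of the highest control, and Il5ra in midkine 5 lies at -1.72.

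Prg2 carried most of the reads of the list. It held 85.9 to 87.5% of the reads of the 8 genes with midkine and 86.7 to 87.6% in control. Together the 8 genes made up 0.0321, 0.0315 and 0.0208% of the reads in midkine 3, 4 and 5, against 0.0147, 0.0143 and 0.0120% in control 1, 2 and 4. Without Prg2, the other 7 genes summed to 280, 251 and 189 normalized counts in midkine 3, 4 and 5, against 116, 111 and 101 in control 1, 2 and 4. All 3 midkine sums lay above all 3 control sums. The genes were chosen with these values known, so nothing is read from that. In such bulk samples, more cells of a type and more RNA per cell cannot be told apart.

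Across the whole table, limma called 0 of 13543 with all 6 libraries (0.0%; smallest adjusted p = 0.0523), while 2663 (19.7%) had an unadjusted p under 0.05. Over all genes tested, edgeR called 10 (0.0738%; 0.0443% higher and 0.0295% lower) and DESeq2 called 680 (5.56%). Of 105 tested genes in the 11 other lists, limma and edgeR called 0, DESeq2 called 25 higher and 1 lower (3.68% and 1.88% of all genes it tested), and 42 had an unadjusted p under 0.05 with a higher level and 3 with a lower one (10.4% and 9.3% of all genes). Without midkine 5, limma called 54 of the 105 higher and 7 lower, beside 9.92% and 8.52% of all genes. The lists were chosen with earlier results of these data known, so nothing is read from these counts beside those shares. Calls of single genes below are from limma without midkine 5 (midkine 3 and 4 against the 3 controls) unless stated, with Benjamini-Hochberg adjusted p. Midkine 5 was left out after it was seen to stand apart, so these adjusted p do not cover the full spread among the midkine libraries. The adjusted p given for all 6 libraries are from limma too, and none of these genes passed there. Some of them, such as Prss34, Cd63 and Cd300lf, were among those that DESeq2 called with all 6 libraries, and others, such as Ccr3 and Gata2, were not.

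Related ribonucleases went both ways. Of 11 listed, 3 had values, with 1 called higher and 1 lower. Rnase4, a ribonuclease of many tissues, had 94.7, 106 and 114 normalized counts in midkine 3, 4 and 5, against 65.6, 53.2 and 55.2 in control 1, 2 and 4. It was called higher without midkine 5 (adjusted p = 0.00634; 0.0890 with all 6 libraries). Rnase6, which is made by monocytes and macrophages, had 609 ± 111 with midkine and 837 ± 25.9 in control (SD, n = 3 each). It was called lower without midkine 5 (adjusted p = 0.0331; 0.191 with all 6 libraries). Ang, the third, did not pass (adjusted p = 0.151).

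Of the 4 other receptor chains of the IL-5 family that were measured, 3 did not pass. Csf2ra, the GM-CSF receptor alpha chain, was called higher without midkine 5 (adjusted p = 0.0355). Its log2 fold change was 0.49 without midkine 5 and 0.19 with it (adjusted p = 0.711). Csf2rb, the beta chain that pairs with Il5ra, had 1843 ± 356 normalized counts with midkine and 1595 ± 186 in control (adjusted p = 0.821, and 0.549 with all 6 libraries). The list's median was 0.20. The cytokines Il5, Il3 and Csf2 had no values among the gene symbols.

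Of 18 measured genes of eosinophil surface and effector function, 7 were called higher and 1 lower, and the median log2 fold change was 0.44. Those with the smallest p over all 6 libraries were Cd300lf, Fcgr3, Ccl6 and Adgre1, which monocytes and macrophages also express. The gene called lower was Itgb7, an integrin beta chain, with 405 and 337 normalized counts in midkine 3 and 4, against 594 to 693 in control (adjusted p = 0.000147). In midkine 5 it had 1468, above every control, so that its adjusted p with all 6 libraries was 0.871. Cd300lf, an inhibitory receptor, had 1048 ± 10.1 normalized counts with midkine and 573 ± 50.9 in control (adjusted p = 3.83e-05; 0.0757 with all 6 libraries). Ccr3, the eotaxin receptor that guides eosinophils into tissue, was named after its values were seen. It had 46.4, 49.6 and 38.1 normalized counts in midkine 3, 4 and 5, against 30.8, 19.4 and 25.6 in control 1, 2 and 4. The groups did not overlap, and Ccr3 was called higher without midkine 5 (adjusted p = 0.0194; 0.160 with all 6 libraries).

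Among 16 transcription factors known to act in eosinophil development, 6 were called higher and 1 lower, with a median of 0.19. Id1, an inhibitor of helix-loop-helix factors, had 210 ± 46.6 normalized counts with midkine and 104 ± 1.72 in control (adjusted p = 6.70e-05; 0.0788 with all 6 libraries). Cebpb and Cebpa, which encode C/EBP proteins, were called higher (adjusted p = 0.000714 and 5.24e-05; 0.0881 and 0.118 with all 6 libraries), as was Trib1, a pseudokinase that promotes the breakdown of C/EBP alpha (7.72e-05; 0.102). Gata1 and Gata2 were named after their values were seen. Gata1, the factor without which mice make no eosinophils, had 33.8 ± 7.13 with midkine and 31.7 ± 5.30 in control (adjusted p = 0.914; 0.874 with all 6 libraries). Gata2, which basophils and mast cells also require, had 42.5, 46.4 and 20.9 normalized counts in midkine 3, 4 and 5, against 16.4, 26.6 and 10.8 in control 1, 2 and 4. Gata2 was called higher without midkine 5 (adjusted p = 0.00794; 0.239 with all 6 libraries), and in midkine 5 it was within the control range.

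Of 10 measured genes of granule assembly and of the peroxidase family, 4 were called higher and 1 lower, with a median of 0.37 that was 0.19 without midkine 5. Cd63, a membrane protein of granules and lysosomes, had 13702 ± 2143 normalized counts with midkine and 6575 ± 357 in control (adjusted p = 3.44e-05; 0.0757 with all 6 libraries). Srgn, the proteoglycan core on which granule proteins are packed, had 539 ± 44.0 with midkine and 348 ± 31.5 in control (adjusted p = 0.000446; 0.0982 with all 6 libraries). Ctsc, a protease that activates granule enzymes, and Mpo, the peroxidase of neutrophils, were also called higher (0.000411 and 0.0208; 0.0844 and 0.232 with all 6 libraries). These genes are used by many myeloid cells and do not mark eosinophils.

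**Figure D3:**
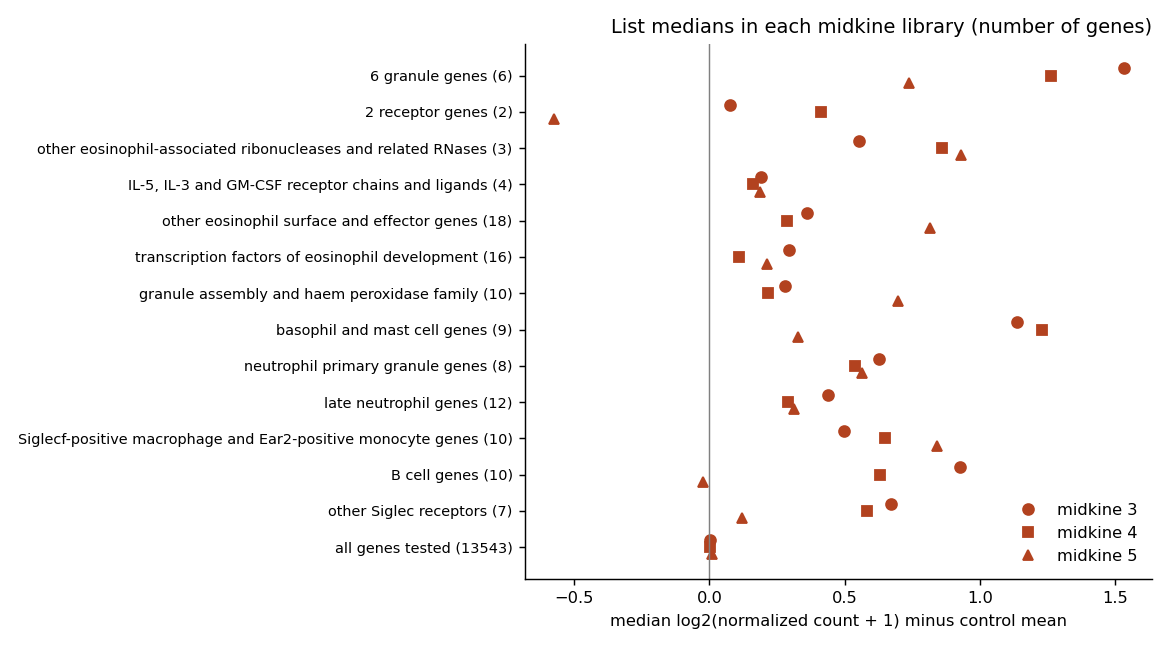
Median difference from the control mean on the log2(normalized count + 1) scale (horizontal axis) for each gene list in midkine 3, 4 and 5, with the number of genes tested in brackets. The lowest median is that of midkine 5 for the granule genes (0.74), the receptor genes (-0.57) and the basophil and mast cell genes (0.33). The same holds for the B cell genes (-0.02) and the other Siglec receptors (0.12). The median of all genes lies between 0.0021 and 0.011.

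Summed markers of basophils and mast cells, of neutrophils and of macrophages were higher in every midkine library than in every control. Of 4 dendritic cell markers, 3 were lower in every midkine library, as were 15.3% of all genes tested. For 9 measured basophil and mast cell genes the median log2 fold change was 0.93. Without midkine 5 it was 1.20, and 1 gene was called lower and 6 higher. Prss34, a serine protease of basophils, had 503, 500.4 and 385 normalized counts in midkine 3, 4 and 5, against 167, 223 and 185 in control 1, 2 and 4 (adjusted p = 4.90e-06; 0.0735 with all 6 libraries). Ms4a2, the beta chain of the IgE receptor, had 43.8 ± 5.79 with midkine and 15.9 ± 7.52 in control (adjusted p = 0.00318; 0.0920 with all 6 libraries). Mcpt8 and Cd200r3, basophil genes named after their values were seen, were also lowest in midkine 5 among the midkine libraries. Mcpt8 had 259, 238 and 69.9 normalized counts in midkine 3, 4 and 5, against 50.3 to 102 in control. Cd200r3 had 19.3, 16.9 and 1.82 with midkine, against 6.15 to 10.2 in control. Of the 8 genes, Epx, Ear6 and Il5ra thus lay within or below the control range in midkine 5, while Prg2, Prg3, Ear1 and Ear2 lay above it. The place of Siglecf in midkine 5 depended on the scaling. It had 10.9 normalized counts against 10.3 in control 1, but 1.66 RPM against 1.67 RPM. Of the basophil genes just given, Mcpt8 and Cd200r3 lay within or below the control range in midkine 5, and Prss34 and Ms4a2 lay above it. Cpa3 of the same list also lay above it (49.9, against 33.5 to 44.1), and Ifitm1 was highest in midkine 5 among the midkine libraries. Genes of other lists lay below every control in midkine 5 too. Cxcr2 of neutrophils had 154, against 429 to 510, and Cd79a of B cells had 113, against 156 to 265. These genes were also named after their values were seen.

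Summed over the markers fixed for each cell type, 5 of 6 basophil and mast cell markers had values, at 546 to 913 normalized counts with midkine and 280 to 402 in control, and Fcer1a had none. All 5 neutrophil markers had values, at 28495 to 29643 with midkine and 19266 to 22671 in control. Ngp alone had 17525 to 19852 with midkine and 13490 to 16424 in control. Elane had 168 in midkine 5, below the 238 to 308 in control, and Ltf overlapped between the groups. All 5 macrophage markers had values, at 10719 to 11514 with midkine and 6242 to 7032 in control. All 4 B cell markers had values, at 686 to 1466 with midkine and 581 to 845 in control, where the groups overlapped. Of the 4 dendritic cell markers, 3 were lower in all midkine libraries than in all controls and 1 overlapped, although their sums, given above, overlapped. Over all genes tested, 15.3% were lower in this way and 15.5% higher. All midkine values lay above all control values for 3 of 5 basophil and mast cell markers and 3 of 5 neutrophil markers. The same held for 4 of 5 macrophage and 2 of 4 B cell markers, and the rest overlapped. The 6 eosinophil markers are Ccr3 and 5 of the 8 genes themselves (Prg2, Prg3, Epx, Il5ra and Siglecf), so their sum of 1300 to 1911 with midkine and 736 to 878 in control restates the choice of these genes and is no separate evidence. None of these markers was at 0 in any library. The part of these other cells in the values of the 8 genes was not tested.

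**Figure D4:**
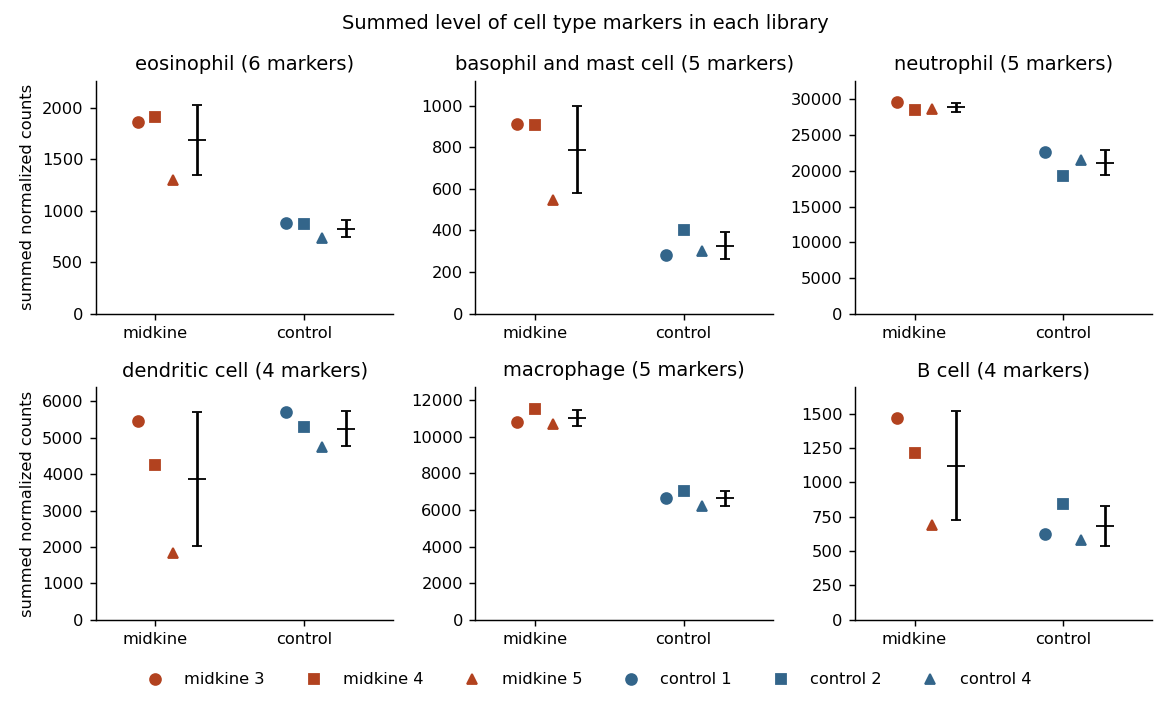
Summed normalized counts (vertical axes, from 0) of the markers of each cell type in the midkine libraries (red, left) and the control libraries (blue, right), with 1 symbol per library and the mean and SD of 3 libraries in black. The eosinophil, basophil and mast cell, neutrophil and macrophage sums lie higher in all midkine libraries than in all controls, and the dendritic cell sum is lowest in midkine 5 at 1845.

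Lists of neighbouring lineages gave the following counts without midkine 5, where 9.92% of all genes were called higher and 8.52% lower. Of 8 neutrophil primary granule genes 5 were called higher and 0 lower (median log2 fold change 0.57 with all 6 libraries), and of 12 late neutrophil genes 6 were called higher and 0 lower (0.32). Of 10 genes of Siglecf-positive macrophages and Ear2-positive monocytes, Ear2 left out, 5 were called higher and 1 lower (0.40). Fabp4, a fatty acid-binding protein of macrophages, had 1252 ± 118 normalized counts with midkine and 397 ± 154 in control. Nr4a1, a nuclear receptor needed by patrolling monocytes, had 55.6 ± 8.65 with midkine and 16.9 ± 6.19 in control. Of 10 B cell genes, 9 were called higher and 0 lower (0.51). Their median log2 difference from the control mean was 0.92 in midkine 3, 0.63 in midkine 4 and -0.02 in midkine 5. With all 6 libraries, 3 of them had an unadjusted p under 0.05 with a higher level. Of 7 other Siglec receptors 5 were called higher and 1 lower (0.46). The lower one was Siglech, a receptor of plasmacytoid dendritic cells, with 234 ± 51.0 with midkine and 404 ± 59.7 in control. With all 6 libraries limma called none of the genes in these 5 lists. The single genes called lower in the other lists were named, like Itgb7, after their values were seen: Irf8 among the transcription factors (log2 fold change -0.50 without midkine 5, adjusted p = 0.00208), Cst7 in granule assembly (-0.59, 0.00396), Ifitm1 among basophil and mast cell genes (-1.13, 0.00138) and Spn in the macrophage and monocyte list (-0.47, 0.00680).

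The genes whose levels were most like the mean profile of the 8 genes were ranked by Pearson correlation of log2 values over the 6 libraries, among 10122 genes. The points share the contrast between the groups, and 232 genes had a correlation above 0.9, so these are a description. Rcbtb2 came first (r = 0.998), followed by Retnlg (0.989), Il11ra1 (0.986), Spp1 (0.986), Maoa, Ostm1, Pramef8, Cdkn1c, Cd9 and Rab29 (0.982). Retnlg, a resistin-like protein of neutrophils, had 2773, 2801 and 1660 normalized counts in midkine 3, 4 and 5, against 1280, 1454 and 1118 in control 1, 2 and 4. Spp1, which encodes osteopontin, had 2241, 2379 and 1253, against 653, 657 and 591. In all 10 genes midkine 5 lay between the other midkine libraries and the controls, as the profile itself did.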

How the data were processed

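RNA was measured in 3 midkine and 3 control libraries. Per the labels' protocols these are QuantSeq 3′ libraries (FWD), a kind that yields 1 fragment per transcript near its 3′ end. The deposited values are normalized counts, a signal per gene symbol. Named in the submitters' processing notes are GRCm38 (mm10) as build and, as tools, HTSeq, DESeq2, SAMtools 0.1.19, TopHat2 2.0.10, FastQC 0.11.0 and Bowtie 1.0.0. No source used here gives the read length, strand setting, annotation release or gene filter. Dividing each library by its smallest step gave whole reads for 100% of values (tolerance 0.01 reads), which summed to 5985684 to 7233960 per library.

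The test was limma 3.58.1 (lmFit, eBayes with trend, R 4.3.3) on log2(normalized count + 1), for 13543 genes with a mean of at least 5, two-sided and adjusted by Benjamini-Hochberg, with calls at 0.05. Fold changes are midkine minus control on that log2 scale, which understates the change of low genes. Alternatives on the recovered reads were the quasi-likelihood test of edgeR 4.0.16 with TMM and DESeq2 1.42.0, which gave an adjusted p to 12229 genes. Scripts were tested on simulated counts. A floor of 3 reads was at most 5.01e-05% of a library, and Wilson 95% intervals cover counting error only.

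Genes and lists were chosen with earlier results of these data known. Named were the 8 genes, up to 4 genes with the smallest p in each of 11 lists and 10 genes most like the 8 (mean of at least 20, Gm and Rik models skipped), with exceptions stated. Coordinates are from GENCODE M21. Promoters of 7 of the 8 genes were taken from RefSeq (GRCm38.p6).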

Additional observations from a re-analysis of the deposited data

How the results depend on the processing

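No paired analysis was possible because the groups share only 1 replicate number, 4. The median log2 fold change of the 8 genes was 1.19 and stayed within 1.01 to 1.28 over all 15 alternatives except leaving out midkine 3, which gave 0.998; leaving out 1 library at a time gave 0.998 to 1.28. The count of genes called by limma, 0 with all 6 libraries, was 10 with edgeR, 680 with DESeq2, 10 with a pseudocount of 5, 9 with no filter and 16 with quantile normalization, and 0 to 2497 leaving out 1 library, all 2497 without midkine 5. Over the other lists together, 26 genes were called with DESeq2 and 0 to 61 leaving out 1 library, again only without midkine 5. The cause was not tested. Of the 8 genes, Il5ra changed sign in 1 of 15 alternatives, and the other 7 in none. Epx and Siglecf, with means under 20, gave no value with the stricter filter. Counts of 4 to 29 reads limit both genes.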
